A study of Rattus norvegicus with 45 samples.

Results

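The liver of rats treated with the fungicide triadimefon for 14 days was compared with the liver of control rats sampled at the same time. The comparison takes the 5 arrays titled as triadimefon and the 5 titled as control at that time, 10 of the 45 arrays of the series, and follows every gene on them. The animals were adult males of the Sprague-Dawley strain, 10 weeks of age, all dosed by gavage. Their total liver RNA was hybridised to Affymetrix Rat Genome 230 2.0 arrays. Triadimefon was given at 175 mg/kg/day. The dose is stated for the series and not per array, and what the controls received is not given in the sources used here. For reference the text also uses the 5 arrays of rats given the related triazole myclobutanil at 225 mg/kg/day for 14 days, and the 5 control and 5 triadimefon arrays at 24 h. The labels conflict on the number of animals (5 arrays a group by title, 3 animals a group where labelling is described, and 15 livers in the design text). If arrays of a group do not come from separate rats, the p-values below measure only the spread between these arrays, which may be technical.

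Triadimefon is a triazole, a class that blocks the fungal cytochrome P450 which removes a methyl group from sterol precursors. In mammalian liver such compounds are ligands or activators of the nuclear receptors CAR and PXR, which switch on a coordinated set of genes for the oxidation, conjugation and export of foreign chemicals. The same hepatocytes make and secrete cholesterol, bile acids and lipoproteins, store and burn fat, and run a daily clock of transcription factors that represses or drives many of these genes, so each of these systems is taken in turn.

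Values are scores deposited by the authors, on a log-type scale whose base is not given in the sources used here. Differences are therefore in score units, triadimefon minus control, ± the standard error of the fit. The fit takes 1 spread per probe set over all 9 groups, so this error can be too small where treated arrays spread widely. A difference of 1 unit is 2-fold if the base is 2, 2.72-fold if it is that of the natural logarithm and 10-fold if it is 10. Tests are limma's moderated test over all 45 arrays with Benjamini-Hochberg adjustment over 31042 probe sets, and a probe set or gene is called at an adjusted p under 0.05. Array numbers run from 1 to 5 within a group, and where values of a group are listed they stand in that order.

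At 14 days 2076 of 31042 probe sets were called (6.69%), 1207 higher and 869 lower with triadimefon. After quantile normalization, which gives every array the same distribution, 2839 were called (9.15%). With each of 14218 genes represented by 1 probe set, 781 genes were higher (5.49% of genes) and 389 lower (2.74%). After quantile normalization these became 848 (5.96%) and 766 (5.39%), so the share of called genes that were higher fell from 66.8% to 52.5%. With every array shifted to 1 median it was 80.3%, and no majority direction is given for the comparison. Counts of called list members below are to be read beside the shares over all genes, 5.49% higher and 2.74% lower as deposited. At an unadjusted p under 0.05 stood 3713 of the 14218 genes, and list counts at that level are to be read beside this. Of the 1170 genes called, 799 had 5 triadimefon values that did not overlap the 5 control values, and 970 were also called, in the same direction, after quantile normalization. The share without overlap over all genes was not counted. Genes called by a small adjusted p tend to have separate groups, so counts without overlap, here and below, are descriptions. The count of probe sets depended on single arrays: it was 1014 without control array 2, 1164 without triadimefon array 4, 1337 without triadimefon array 1 and 1370 without triadimefon array 5.

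Most differences were small. The median size among called genes was 0.133 units, 48 called genes reached 0.5 units (34 higher and 14 lower), and 7 reached 1 unit. All 48 were called after quantile normalization too, and in 37 of them the groups did not overlap. The bright end of the scale differed between arrays: among probe sets with a mean score above 3, the median score of an array lay between 3.24 and 3.63 in the controls and between 3.22 and 3.54 with triadimefon. The median within-group SD of these probe sets was 0.178 as deposited and 0.0568 after quantile normalization. Differences of bright liver genes as deposited carry that larger spread. Every array gets the same set of scores from that normalization, so a smaller spread at the bright end follows by construction. Whether differences of bright genes carry less error after it was not tested. Hepatocyte markers were among the brightest genes: 15 of 18 were measured, with a mean score per array of 3.75 to 4.35 in controls and 3.69 to 4.07 with triadimefon. As deposited 0 were called, and after quantile normalization 0 were higher and 3 lower. Their median difference was -0.113 units as deposited and -0.017 after that normalization. Albumin (Alb) read 5.14, 5.45, 4.65, 4.71 and 5.09 on the control arrays and 4.73, 5.04, 5.05, 4.55 and 4.91 on the triadimefon arrays, and the groups overlapped.

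**Figure D1:**
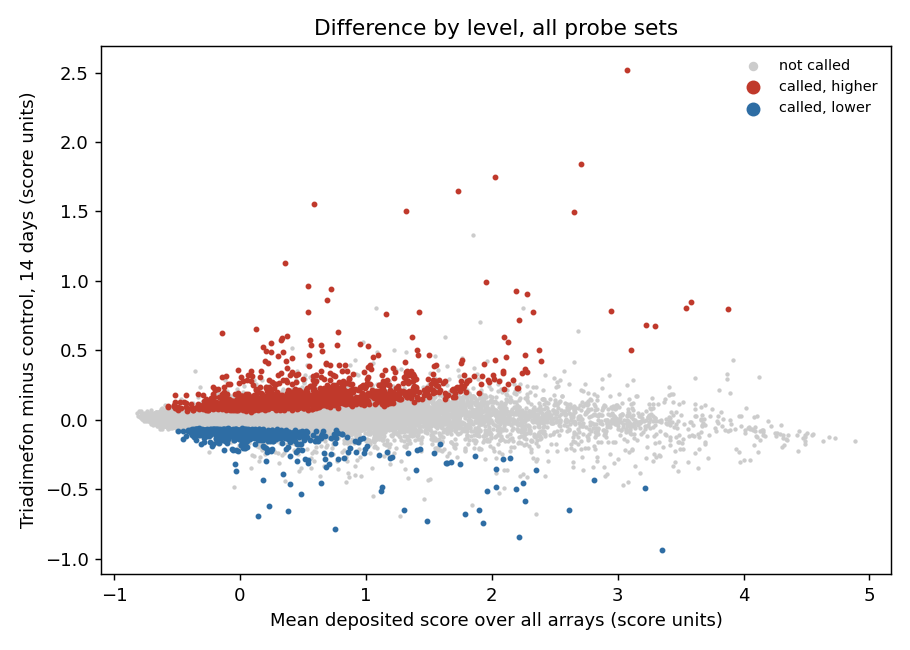
Each point is 1 of 31042 probe sets. The horizontal axis is its mean deposited score over 45 arrays, the vertical axis the difference triadimefon minus control at 14 days, both in score units; red points were called higher (1207), blue points called lower (869) and grey points not called. Most called points lie within 0.5 units of 0, and the Cyp2b1 or Cyp2b2 probe set stands highest at 2.52.

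P450 enzymes of families 1 to 3 take the first step on foreign chemicals. Of 36 measured members of a list of these enzymes with their electron donors, 3 were called higher, a share near the 5.49% over all genes, and 0 lower. At an unadjusted p under 0.05 stood 12, beside 3713 of 14218 over all genes. The median difference was 0.0262 units against 0.00188 over all genes. After quantile normalization 8 were higher and 1 lower, and the median was 0.04. The probe set shared by Cyp2b1 and Cyp2b2, the classic targets of CAR in rat liver, read 1.40, 1.53, 0.99, 0.87 and 1.28 on the control arrays and 3.05, 3.86, 3.94, 3.77 and 4.03 on the triadimefon arrays. Every treated array stood far above every control array, array 1 lowest among the treated. The difference of 2.52 ± 0.21 (adjusted p = 7.85e-11) was the highest of all genes. It was already 2.56 ± 0.21 at 24 h and 2.38 ± 0.21 at 6 h. Cyp3a23-3a1, a main target of PXR, rose by 0.80 ± 0.15 (adjusted p = 6.99e-04). Its arrays read 3.80, 3.27, 3.40, 3.32 and 3.67 on the control arrays and 4.14, 4.50, 4.41, 4.04 and 4.37 on the triadimefon arrays, without overlap. Cyp3a18 of the same subfamily rose by 0.85 ± 0.19 (adjusted p = 0.00489), with control values from 1.96 to 3.63 and treated values from 3.67 to 4.13. Control array 2 was the low one among those controls, at 1.96, and the call was lost when only the groups compared entered the fit. Cyp3a9 differed by 0.71 ± 0.23 (adjusted p = 0.0547) and passed when control array 3 was left out (adjusted p = 0.0265), after a median shift, with a level filter, with array weights, with a replicate block and with only the groups compared.

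Several well-known P450 genes did not pass. Cyp1a1, the marker of the aryl hydrocarbon receptor, differed by 0.16 ± 0.070 (adjusted p = 0.151), and Cyp1a2 by 0.29 ± 0.14 (adjusted p = 0.187), the latter called after quantile normalization (adjusted p = 0.026). Cyp2c11, the male-specific P450 of rat liver, differed by -0.0095 ± 0.17 (adjusted p = 0.981), with a 95% interval of -0.36 to 0.34. Por, the reductase that feeds electrons to all microsomal P450 enzymes, differed by 0.45 ± 0.17 (adjusted p = 0.0966), called with array weights or only the groups compared, and Alas1, the first enzyme of haem synthesis, by 0.27 ± 0.17 (adjusted p = 0.337). At 24 h Por had stood at 0.92 ± 0.17 (adjusted p = 4.72e-04) and Alas1 at 1.11 ± 0.17 (adjusted p = 4.77e-05). The receptors were measured as well. Nr1i3 (CAR) differed by 0.29 ± 0.10 (adjusted p = 0.0749), its lowest treated array just above the highest control and called with array weights, Nr1i2 (PXR) by 0.046 ± 0.081 (adjusted p = 0.772), and the aryl hydrocarbon receptor itself, Ahr, rose by 0.27 ± 0.075 (adjusted p = 0.0222). Ahr lost its call when control array 5 or triadimefon array 3 or 5 was left out, with an adjusted p of up to 0.0637, and its other probe set was not called.

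Enzymes that oxidise or hydrolyse without P450 were called in 1 direction. In the list of carboxylesterases, epoxide hydrolases and oxidases 6 of 33 measured members were higher, beside 5.49% over all genes, and 0 lower. The median was 0.105 units. Aldh1a1, which oxidises retinal and other aldehydes, read 0.62, 1.5, 0.91, 1.63 and 1.65 on the control arrays and 2.90, 3.12, 3.06, 2.67 and 3.28 on the triadimefon arrays. The groups were more than 1 unit apart, and the difference was 1.75 ± 0.20 (adjusted p = 2.64e-07). Ces2c, a carboxylesterase, read 0.58, 0.71, 0.64, 0.71 and 0.69 on the control arrays and 2.07, 2.44, 1.93, 2.17 and 2.22 on the triadimefon arrays. Its controls lay within a narrow band, and the difference of 1.5 ± 0.095 (adjusted p = 4.22e-14) had the smallest adjusted p of the genes described here. Ephx1, the microsomal epoxide hydrolase, rose by 0.80 ± 0.14 (adjusted p = 3.01e-04), with controls at 2.92 to 3.36 and treated arrays at 3.62 to 4.17. Akr7a3, an aldehyde reductase that acts on aflatoxin, rose by 0.99 ± 0.15 (adjusted p = 4.28e-05), and its relative Akr7a2 by 0.27 ± 0.073 (adjusted p = 0.0204). The call of Akr7a2 was lost without control array 4 or triadimefon array 5 (adjusted p of up to 0.0735).

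Of 19 measured glutathione transferases, which join glutathione to reactive chemicals, 7 were higher, beside 5.49% over all genes, and 0 lower. A difference above 0 was found for 16, and the median was 0.21 units. Gsta3 read -0.22, 0.15, -0.072, 0.23 and 0.26 on the control arrays and 1.42, 1.57, 1.56, 1.65 and 1.90 on the triadimefon arrays, and rose by 1.55 ± 0.16 (adjusted p = 1.21e-08). Control values lay around 0 and every treated value above 1. Gstm3 read 0.36, 0.17, 0.095, 0.35 and 0.27 on the control arrays and 0.93, 1.38, 1.23, 1.03 and 1.52 on the triadimefon arrays, a rise of 0.97 ± 0.092 (adjusted p = 2.25e-09). Gstm4 rose by 0.47 ± 0.047 (adjusted p = 1.21e-08) and Gsta4 by 0.43 ± 0.094 (adjusted p = 0.00471), neither with overlap. Mgst2, a membrane-bound member, rose by 0.50 ± 0.092 (adjusted p = 6.90e-04). Gstt3 and Gstm2 rose by 0.78 ± 0.22 (adjusted p = 0.03) and 0.50 ± 0.15 (adjusted p = 0.0308). Each of these last calls was lost when any of 6 arrays was left out: control array 1, 2 or 4 or triadimefon array 2, 3 or 5 for Gstt3, where the adjusted p reached 0.0825, and control array 2, 3 or 4 or triadimefon array 2, 3 or 5 for Gstm2, where it reached 0.108. Gstp1, the form that marks altered foci in rat liver, differed by 0.032 ± 0.050 (adjusted p = 0.739), with control values of 0.97 to 1.07 and treated values of 0.95 to 1.16.

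Among the UDP-glucuronosyltransferases, which add glucuronic acid to drugs, bilirubin, steroids and thyroid hormone, and the enzymes that supply their cofactor, 3 of 9 measured members were higher and 0 lower (5 and 0 after quantile normalization). Over all genes 5.49% were called higher, and 5.96% after quantile normalization. Ugt2b1 read 1.43, 1.46, 1.75, 1.72 and 2.41 on the control arrays and 3.07, 3.33, 3.32, 3.12 and 3.42 on the triadimefon arrays, a rise of 1.5 ± 0.19 (adjusted p = 1.02e-06). Control array 5 was the highest control and still lay below every treated array. Ugt2b10 rose by 0.60 ± 0.13 (adjusted p = 0.00278) and Ugt2a1 by 0.40 ± 0.063 (adjusted p = 7.37e-05). Treated array 1 of Ugt2b10, at 1.89, fell below the highest control. Of 17 measured sulfotransferases and cofactor enzymes, 0 were higher and 1 lower (1 and 3 after quantile normalization). Probe sets of large families such as these can also read close relatives, and the part of that in these values was not tested.

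Of 25 measured transporters that move conjugates, drugs and bile acids across the hepatocyte membrane 4 were higher and 1 lower, the latter near the 2.74% over all genes. Abcc3, which exports glucuronides into blood, read 0.083, 0.039, 0.0096, 0.033 and 0.15 on the control arrays and 0.93, 1.16, 1.02, 1.29 and 1.58 on the triadimefon arrays. It stood near 0 in every control and at 0.93 or more in every treated array, a rise of 1.13 ± 0.096 (adjusted p = 1.05e-10). Slco1a4, an uptake carrier for organic anions, rose by 0.78 ± 0.095 (adjusted p = 6.62e-07), and its other probe set was called in the same direction. Abcb1a, which encodes a P-glycoprotein drug pump, rose by 0.58 ± 0.092 (adjusted p = 9.46e-05), with controls at -0.24 to -0.061 and treated arrays at 0.27 to 0.78. Slco1a1 rose by 0.23 ± 0.066 (adjusted p = 0.0312) and Slc22a7, an anion carrier, fell by 0.28 ± 0.081 units (adjusted p = 0.0303). Slco1a1 lost its call without control array 3, 4 or 5 or triadimefon array 2, 3 or 5 (adjusted p of up to 0.0954), and Slc22a7 without control array 1, 2 or 5 or triadimefon array 1 or 4 (up to 0.11). Abcc2, the conjugate pump of the bile canaliculus, differed by 0.23 ± 0.11 (adjusted p = 0.166).

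**Figure D2:**
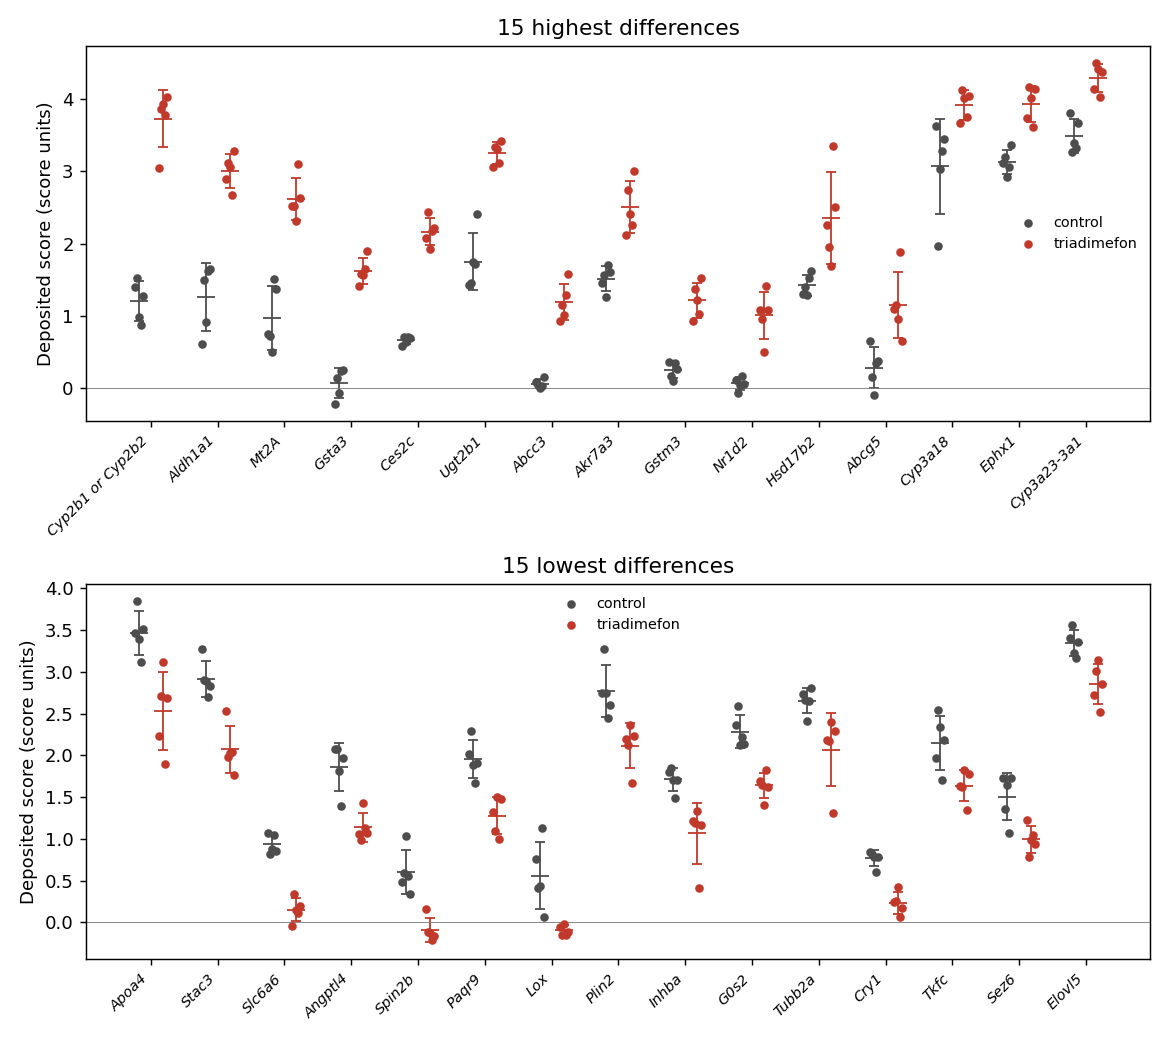
Deposited scores (vertical axis, score units) of the 15 genes with the highest and the 15 with the lowest differences among called genes; grey points are the 5 control arrays, red points the 5 triadimefon arrays, and bars are the mean ± SD. Cyp2b1 or Cyp2b2 runs from 0.87 to 1.53 in controls and from 3.05 to 4.03 with triadimefon, while Apoa4 runs from 3.11 to 3.85 and from 1.90 to 3.12.

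The targets of NRF2, the factor that answers oxidants and electrophiles, and the enzymes of glutathione synthesis were higher in 7 of 27 measured members and lower in 0, with a median of 0.111 units. After quantile normalization 12 were higher. The shares higher over all genes were 5.49% as deposited and 5.96% after that normalization. Gsr, which regenerates reduced glutathione, read 0.71, 0.82, 0.78, 0.84 and 0.75 on the control arrays and 0.96, 1.20, 1.16, 1.10 and 1.20 on the triadimefon arrays, and rose by 0.34 ± 0.045 (adjusted p = 2.69e-06). All treated values lay above all controls. Pir rose by 0.45 ± 0.098 (adjusted p = 0.00426) and Srxn1, which repairs oxidised peroxiredoxins, by 0.29 ± 0.059 (adjusted p = 0.00214), although 0 of its 2 other probe sets were called. The subunits of the enzyme that limits glutathione synthesis rose by 0.32 ± 0.067 (adjusted p = 0.0028) for the modifier Gclm and by 0.28 ± 0.081 (adjusted p = 0.0308) for the catalytic Gclc. The call of Gclc was lost without control array 3, 4 or 5 or triadimefon array 2 or 5 (adjusted p of up to 0.104). Nqo1, the quinone reductase most used as an NRF2 marker, differed by 0.46 ± 0.20 (adjusted p = 0.145) and ranged widely in both groups, from 0.64 to 1.46 in controls and from 0.99 to 1.99 with triadimefon. Hmox1, the inducible haem oxygenase, differed by 0.13 ± 0.068 (adjusted p = 0.234), and Txnrd1 by 0.20 ± 0.067 (adjusted p = 0.0623), the latter called after quantile normalization (adjusted p = 0.0153).

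The metallothioneins, small proteins that bind zinc and copper and rise with metals and glucocorticoids, were both higher. Mt2A read 0.75, 0.72, 0.50, 1.52 and 1.37 on the control arrays and 2.53, 2.52, 2.31, 3.10 and 2.63 on the triadimefon arrays, and rose by 1.65 ± 0.30 (adjusted p = 6.73e-04). Control arrays 4 and 5 stood above the other controls, at 1.52 and 1.37, but below every treated array. Mt1 read -0.11, -0.095, -0.12, 0.090 and 0.061 on the control arrays and 0.44, 0.38, 0.39, 0.56 and 0.55 on the triadimefon arrays, a rise of 0.50 ± 0.086 (adjusted p = 2.89e-04), and its groups were separate as well. In the wider list of glucocorticoid and metallothionein responses these were the only 2 of 17 measured members called higher, and 0 were lower. The 2 genes lie beside each other, and their promoter windows are shown because the genes moved together. The windows run from 250 bases before to 50 after the start, as RefSeq places it on GRCr8, and capitals mark the metal response core TGCACNC or TGCGCNC on either strand.
Mt1, chr19:10832926-10833225, minus strand: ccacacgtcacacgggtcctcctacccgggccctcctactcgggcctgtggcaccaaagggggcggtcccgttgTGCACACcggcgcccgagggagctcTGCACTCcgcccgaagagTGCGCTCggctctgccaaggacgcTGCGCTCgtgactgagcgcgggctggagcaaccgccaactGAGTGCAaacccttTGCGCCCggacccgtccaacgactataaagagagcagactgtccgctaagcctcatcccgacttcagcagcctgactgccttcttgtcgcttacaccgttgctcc
Mt2A, chr19:10838659-10838958, minus strand: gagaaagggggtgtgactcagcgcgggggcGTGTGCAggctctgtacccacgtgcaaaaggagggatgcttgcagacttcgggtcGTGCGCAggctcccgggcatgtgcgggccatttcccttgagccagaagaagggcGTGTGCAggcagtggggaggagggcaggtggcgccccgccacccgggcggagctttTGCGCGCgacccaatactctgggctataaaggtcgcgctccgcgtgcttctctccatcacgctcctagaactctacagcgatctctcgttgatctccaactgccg
The core occurs 6 times in the Mt1 window and 4 times in the Mt2A window. It was picked after the values were seen and is short, and 34.2% of the windows of all genes tested hold it at least once, against 35.9% of windows of genes called higher and 30.5% of those called lower.

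Abcg5 and Abcg8, which together form the pump that secretes cholesterol and plant sterols into bile, rose together. Abcg5 read 0.66, 0.15, -0.10, 0.34 and 0.38 on the control arrays and 1.10, 1.15, 0.96, 1.88 and 0.65 on the triadimefon arrays, a rise of 0.86 ± 0.16 (adjusted p = 7.77e-04). Abcg8 read 0.20, -0.11, -0.30, -0.013 and -0.046 on the control arrays and 0.53, 0.66, 0.47, 1.27 and 0.074 on the triadimefon arrays, a rise of 0.65 ± 0.14 (adjusted p = 0.00309). Array 4 was the highest treated array and array 5 the lowest treated array for both genes, and the groups of both overlapped through treated array 5 and control array 1. The genes stand head to head: the Abcg8 window (chr6:15717681-15717980, minus strand) shares 295 of its 300 bases with that of Abcg5, read on the other strand. The Abcg5 window is shown because it serves both genes, with the antioxidant core TGACNNNGC and the nuclear receptor motifs AGGTCA and AGTTCA in capitals, either strand.
Abcg5, chr6:15717686-15717985, plus strand: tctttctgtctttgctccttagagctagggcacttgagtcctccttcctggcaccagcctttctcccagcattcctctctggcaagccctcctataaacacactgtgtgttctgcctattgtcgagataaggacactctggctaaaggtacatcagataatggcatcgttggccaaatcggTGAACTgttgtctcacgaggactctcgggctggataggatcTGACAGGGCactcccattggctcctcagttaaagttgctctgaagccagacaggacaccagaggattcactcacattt
It holds 1 match of the antioxidant core, 1 of AGTTCA and 0 of AGGTCA. Windows of all genes tested hold these in 14.1%, 10.6% and 13.2%, so the matches are a description.

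For the rest of the sterol pathway the share called was near that over all genes (5.49% higher). Among 24 measured members of the sterol synthesis and uptake list 2 were higher and 0 lower, with 18 above 0 and a median of 0.107 units. At an unadjusted p under 0.05 stood 10 (3713 of 14218 over all genes). After quantile normalization 1 was higher and 2 lower. Tm7sf2, a sterol reductase that acts just after the step triazoles block, rose by 0.35 ± 0.10 (adjusted p = 0.0304), a call lost without control array 1, 2 or 4 or triadimefon array 4 or 5 (adjusted p of up to 0.0942). Cyp51, the mammalian counterpart of the fungal target, differed by 0.18 ± 0.10 (adjusted p = 0.275) and Sqle, squalene epoxidase, by 0.24 ± 0.11 (adjusted p = 0.154). At 24 h those had been 0.47 ± 0.10 (adjusted p = 0.00274) and 0.82 ± 0.11 (adjusted p = 2.55e-06). The sterol sensors' partners Insig1 and Insig2 differed by -0.18 ± 0.18 (adjusted p = 0.58) and -0.34 ± 0.13 (adjusted p = 0.109). Insig2 was called lower after quantile normalization (adjusted p = 0.0149). Among 16 measured bile acid synthesis genes 0 were called, with 2 at an unadjusted p under 0.05; 2 were higher and 1 lower after quantile normalization. Cyp7a1, the rate-limiting enzyme of bile acid synthesis, read 0.56, 1.87, 1.77, 0.71 and 1.46 on the control arrays and 2.57, 2.0, 1.47, 1.79 and 1.51 on the triadimefon arrays. Its controls spanned over 1 unit, and the difference was 0.59 ± 0.27 (adjusted p = 0.173). Cyp8b1, which sets the cholic acid share, differed by 0.086 ± 0.15 (adjusted p = 0.773).

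Genes of fat handling changed in both directions. Plin2, the main droplet coat protein of hepatocytes, read 2.75, 3.27, 2.75, 2.45 and 2.60 on the control arrays and 2.20, 2.13, 2.36, 1.67 and 2.23 on the triadimefon arrays, and fell by 0.65 ± 0.15 units (adjusted p = 0.00761), with no overlap and with its other probe set called in the same direction. G0s2, an inhibitor of adipose triglyceride lipase, fell by 0.65 ± 0.18 (adjusted p = 0.0241), a call lost without control array 2 or triadimefon array 3 (adjusted p of up to 0.0848). Angptl4, a secreted inhibitor of lipoprotein lipase, read 2.07, 2.08, 1.81, 1.39 and 1.96 on the control arrays and 1.06, 0.98, 1.43, 1.13 and 1.07 on the triadimefon arrays, and fell by 0.73 ± 0.16 (adjusted p = 0.00502). Treated array 3 overlapped control array 4. Lpl, the lipase itself, rose by 0.46 ± 0.078 (adjusted p = 2.45e-04), Cd36, which takes up fatty acids, by 0.50 ± 0.11 (adjusted p = 0.00462), and the droplet proteins Cidea and Plin3 by 0.37 ± 0.089 (adjusted p = 0.00861) and 0.39 ± 0.082 (adjusted p = 0.0028). In the list of fat droplets and triglyceride breakdown 3 of 23 measured members were higher (Lpl, Cidea and Plin3) and 4 lower, Plin2 and G0s2 among them, the same counts as after quantile normalization. Over all genes 5.49% were higher and 2.74% lower as deposited.

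Apoa4, an apolipoprotein of triglyceride-rich particles, had the lowest difference among called genes. It read 3.47, 3.85, 3.39, 3.11 and 3.51 on the control arrays and 2.23, 2.71, 3.12, 1.90 and 2.68 on the triadimefon arrays, and fell by 0.94 ± 0.19 units (adjusted p = 0.00202). Treated array 4 was lowest and treated array 3 just reached the range of the controls. Array 4 also had the lowest bright-end median of the treated arrays (3.22) and control array 2, the highest here, that of the controls (3.63). After quantile normalization, which gives every array the same distribution, Apoa4 stood at -0.94 (adjusted p = 3.85e-07) and Plin2 at -0.65 (adjusted p = 1.12e-04). That step does not remove differences of 1 array in single genes, and their part in these values was not tested. Elovl5, which elongates polyunsaturated fatty acids, fell by 0.49 ± 0.12 (adjusted p = 0.0124), called in its other probe set too but lost without control array 2 or triadimefon array 4 (adjusted p of up to 0.0573). Ppard, the nuclear receptor PPAR-delta, read 0.77, 0.76, 0.69, 0.71 and 0.69 on the control arrays and 0.47, 0.40, 0.54, 0.36 and 0.40 on the triadimefon arrays, and fell by 0.29 ± 0.030 (adjusted p = 2.10e-08), and its other probe set was not called. Of 26 measured fatty acid synthesis genes 3 were higher and 2 lower, beside 5.49% and 2.74% over all genes. Me1 and Acss2, which supply reducing power and acetyl-CoA, rose by 0.46 ± 0.14 (adjusted p = 0.0374) and 0.35 ± 0.091 (adjusted p = 0.016), and Scd2 by 0.32 ± 0.062 (adjusted p = 0.00107), although 0 of its 3 other probe sets were called. The call of Me1 was lost without control array 1, 4 or 5 or triadimefon array 3 or 5 (adjusted p of up to 0.126) and when its probe sets were averaged, and that of Acss2 without triadimefon array 4 (adjusted p = 0.0545). Fasn, fatty acid synthase, differed by -0.36 ± 0.20 (adjusted p = 0.28) and Scd by -0.014 ± 0.32 (adjusted p = 0.985), with Scd controls from 2.24 to 4.17. Of 47 measured members of the list of fatty acid oxidation and PPAR-alpha targets 1 was higher, Cd36, and 1 lower (5.49% and 2.74% over all genes). Angptl4 and Plin2, described above, are not members of that list. Cyp4a1, a target of PPAR-alpha, differed by -0.39 ± 0.13 (adjusted p = 0.0554) without overlap and passed after quantile normalization (adjusted p = 0.0135), and Cpt1a, the gate of mitochondrial fat burning, differed by 0.14 ± 0.16 (adjusted p = 0.63).

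Clock genes moved in opposite directions. Nr1d2 and Nr1d1, the REV-ERB repressors of the clock, were higher. Nr1d2 read 0.12, -0.061, 0.051, 0.17 and 0.064 on the control arrays and 1.08, 0.95, 0.50, 1.41 and 1.09 on the triadimefon arrays, a rise of 0.94 ± 0.10 (adjusted p = 9.31e-08) seen also in both of its other probe sets. Nr1d1 read -0.17, -0.21, -0.21, -0.19 and -0.15 on the control arrays and 0.32, 0.22, -0.081, 0.85 and 0.55 on the triadimefon arrays. Its controls lay within -0.21 to -0.15 and the 5 treated arrays spread from -0.081 to 0.85, a rise of 0.56 ± 0.086 (adjusted p = 5.83e-05). The SD of Nr1d1 was 0.35 with triadimefon and 0.025 in controls, a gap that the pooled error does not show. Per3 rose by 0.32 ± 0.081 (adjusted p = 0.0153), and its other probe set was not called. The call of Per3 was lost without triadimefon array 4 (adjusted p = 0.0824) and with only the groups compared in the fit. Cry1, the repressor that partners PER proteins, read 0.84, 0.82, 0.78, 0.60 and 0.78 on the control arrays and 0.24, 0.26, 0.43, 0.062 and 0.17 on the triadimefon arrays, and fell by 0.53 ± 0.077 units (adjusted p = 2.13e-05). Npas2, an activator that REV-ERB proteins repress, fell by 0.39 ± 0.10 (adjusted p = 0.0156). That call was lost without triadimefon array 4 (adjusted p = 0.0849) and with only the groups compared in the fit. The list of 19 measured clock genes held 3 higher and 2 lower (5.49% and 2.74% over all genes). It held 5 lower after quantile normalization (5.39% over all genes).

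The treated arrays kept an order across these genes. Array 4 was highest for Nr1d1, Nr1d2, Per3 and for Dbp, a clock output factor, and lowest for Cry1, Npas2, Bmal1 and Nfil3. Array 3 was lowest for the first 4 of these genes and highest for Cry1, Npas2 and Bmal1. Dbp read 0.46, 0.19, -0.021, 1.41 and 0.32 on the treated arrays against -0.13 to 0.012 in controls, a difference of 0.52 ± 0.18 (adjusted p = 0.0773). Bmal1 read 0.52, 0.46, 0.61, -0.034 and 0.43 against 0.59 to 0.73, a difference of -0.25 ± 0.085 (adjusted p = 0.0638), and Nfil3 differed by -0.27 ± 0.11 (adjusted p = 0.132). After quantile normalization both were called lower (adjusted p = 0.0196 for Bmal1 and 0.0321 for Nfil3), as was Bmal1 with a replicate block. Without triadimefon array 3 Dbp passed (adjusted p = 0.0366), as did Bmal1 (adjusted p = 0.0337). Clock differed by 0.050 ± 0.070 (adjusted p = 0.708), Per2 by -0.0095 ± 0.13 (adjusted p = 0.975) and Tef by 0.081 ± 0.054 (adjusted p = 0.375). Array 4 was also the treated extreme for Abcg5, Abcg8, Mt2A and Hsd17b2 (highest) and for Apoa4 and Plin2 (lowest). Other leading genes had other extremes: Gsta3, Abcc3, Gstm3 and Aldh1a1 were highest on array 5, and Angptl4 was lowest on array 2. How often each array was the extreme over all genes was not counted. Array 4 also had the lowest bright-end median of the treated arrays (3.22). The time of day at which each liver was taken is not given in the sources used here, and its part in these values was not tested.

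**Figure D3:**
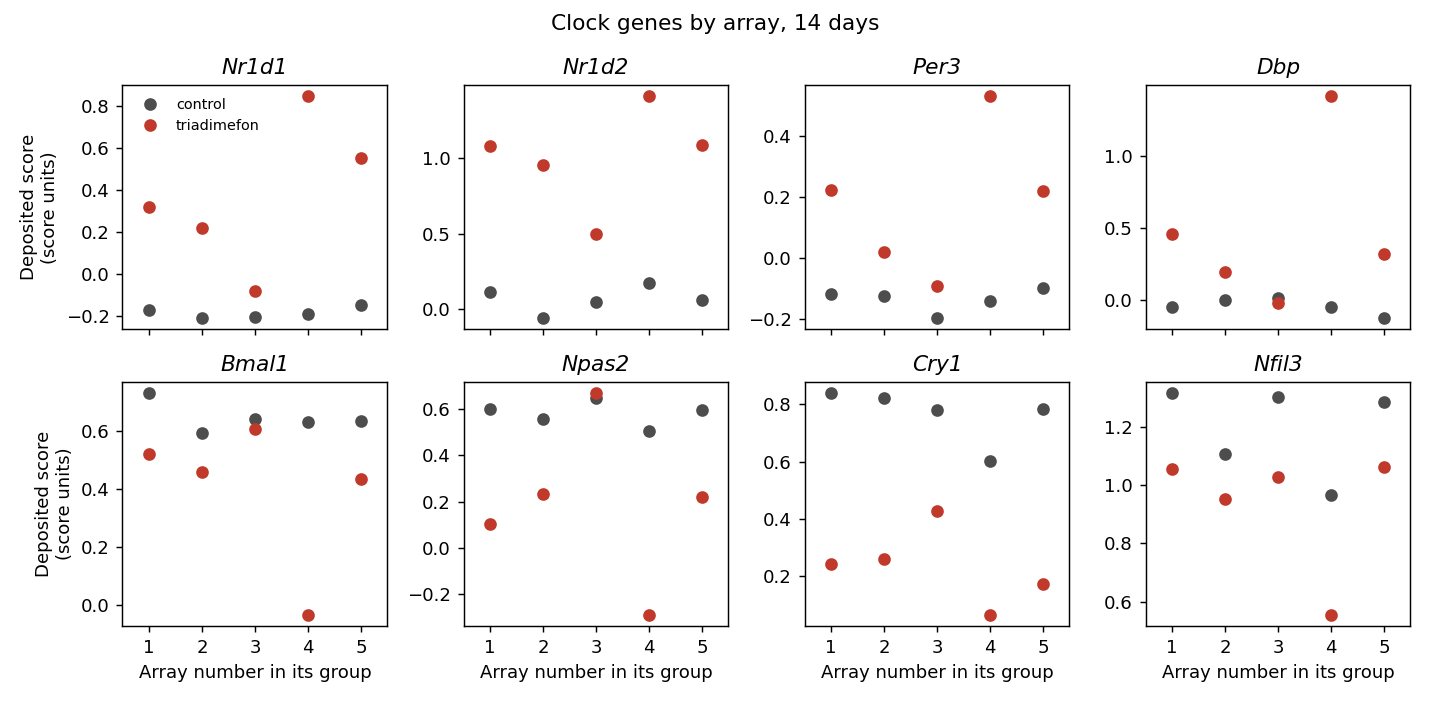
Deposited score (vertical axis, score units) of 8 clock genes on each array at 14 days. The horizontal axis is the array number within its group, grey for control and red for triadimefon. No source used here says that equal numbers mark paired animals. Triadimefon array 4 lies farthest from the controls in every panel, at 1.41 for Dbp and -0.29 for Npas2, and array 3 lies near or within them for Nr1d1, Per3, Dbp, Bmal1 and Npas2.

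A window of Nr1d1 that holds the E-box CACGTG, the site through which clock activators act, is shown for this group, with the E-box in capitals; RefSeq gives Nr1d1 a second start whose window (chr10:84231763-84232062, minus strand) holds 0.
Nr1d1, chr10:84229405-84229704, minus strand: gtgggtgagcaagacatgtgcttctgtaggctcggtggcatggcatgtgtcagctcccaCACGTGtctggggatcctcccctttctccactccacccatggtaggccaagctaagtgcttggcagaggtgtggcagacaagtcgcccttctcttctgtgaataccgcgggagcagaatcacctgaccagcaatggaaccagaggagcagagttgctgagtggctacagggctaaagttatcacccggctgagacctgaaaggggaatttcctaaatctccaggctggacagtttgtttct
The Nr1d2 window (chr15:9954784-9955083, plus strand) holds 0 E-boxes and 1 AGGTCA. Over all genes tested 8.65% of windows hold the E-box, over genes called higher 14.2% (100 of 704 windows, from 653 genes) and over genes called lower 8.8% (30 of 341). Higher genes also held the xenobiotic response core GCGTG in 52.1% of windows, against 42.8% for lower genes and 44.5% overall. The antioxidant core TGACNNNGC stood at 16.6%, 11.4% and 14.1% in that order, the sterol element TCACNCCAC at 1.28%, 0.587% and 1.07%, and TATAAA at 6.11%, 10.3% and 8.47%. AGGTCA was found in 10.9%, 15.5% and 13.2%, and AGTTCA in 8.24%, 11.4% and 10.6%. Motifs were read on either strand, these shares carry no test, and the base composition of the windows was not compared.

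Hormone clearance and signalling changed in single genes. Hsd17b2, which inactivates oestradiol and testosterone, read 1.30, 1.40, 1.30, 1.52 and 1.63 on the control arrays and 2.26, 1.95, 1.69, 3.35 and 2.51 on the triadimefon arrays, a rise of 0.93 ± 0.20 (adjusted p = 0.0042) without overlap, in which treated array 4 stood far above the others. Of 29 measured genes of steroid clearance and sex bias 2 were higher, near the 5.49% over all genes, and 0 lower. Of 19 measured genes of thyroid hormone action and clearance 3 were higher, beside 5.49% over all genes, and 0 lower. Among the 3 were Ugt2b1 and Abcc3, which other lists hold as well. Dio1, the deiodinase that thyroid hormone induces, differed by -0.13 ± 0.094 (adjusted p = 0.393). Igf1, the growth hormone target, differed by -0.23 ± 0.15 (adjusted p = 0.373), and passed as lower after quantile normalization (difference -0.20, adjusted p = 2.30e-05). Hamp, the iron hormone hepcidin, differed by 0.41 ± 0.38 (adjusted p = 0.541), and was called higher with only the groups compared in the fit.

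Genes of growth and division held few calls. Of 55 measured genes of DNA replication and mitosis 0 were called in either direction, as deposited or after quantile normalization. At an unadjusted p under 0.05 stood 5, beside 3713 of 14218 over all genes. The level of the 55 was low, with a mean score per array of 0.0273 to 0.131 in controls and -0.017 to 0.109 with triadimefon. A mean score under 0 was found for 17 of the 55. Mki67 read -0.064, 0.15, -0.030, 0.029 and -0.13 on the control arrays and -0.16, 0.046, 0.023, -0.19 and 0.0011 on the triadimefon arrays, Cdk1 differed by -0.039 ± 0.11 (adjusted p = 0.867) and Ccnd1, cyclin D1, by -0.10 ± 0.086 (adjusted p = 0.493). Myc rose by 0.49 ± 0.13 (adjusted p = 0.0185) with treated values from 0.025 to 1.21; triadimefon array 4, the lowest, lay within the controls. That call was lost without control array 2 or 4 or triadimefon array 1 (adjusted p of up to 0.0949). Cdkn1a, the inhibitor p21, differed by -0.30 ± 0.10 (adjusted p = 0.0649) and passed without triadimefon array 3 (adjusted p = 0.0177), after quantile normalization (adjusted p = 0.0284) and with array weights.

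Of 47 measured genes of the urea cycle and amino acid breakdown 3 were higher and 2 lower (4 and 11 after quantile normalization). The share higher was near the 5.49% over all genes. Of 21 genes of one-carbon, serine and nucleotide synthesis 3 were higher and 1 lower (4 and 2 after quantile normalization). Asns and Psat1, which make asparagine and serine, rose by 0.31 ± 0.052 (adjusted p = 2.36e-04) and 0.29 ± 0.072 (adjusted p = 0.0121). Asns read -0.35, -0.30, -0.30, -0.22 and -0.19 on the control arrays and 0.25, -0.026, -0.060, -0.063 and 0.087 on the triadimefon arrays, highest on treated array 1, and Psat1 was also highest there and lost its call without that array (adjusted p = 0.06). Gnmt, the main consumer of methyl groups in liver, fell by 0.43 ± 0.13 (adjusted p = 0.0324), a call lost without control array 1, 2 or 5 or triadimefon array 1, 2, 4 or 5 (adjusted p of up to 0.0806). Idh2, of the mitochondrial citrate pathway, rose by 0.28 ± 0.075 (adjusted p = 0.0204), lost without control array 2 or triadimefon array 2 or 5 (adjusted p of up to 0.0823). Pc, pyruvate carboxylase, read 1.69, 1.85, 1.68, 1.53 and 1.72 on the control arrays and 1.36, 1.37, 1.53, 1.33 and 1.32 on the triadimefon arrays, and fell by 0.31 ± 0.064 (adjusted p = 0.00228). Tkfc, which phosphorylates glyceraldehyde in fructose breakdown, fell by 0.51 ± 0.13 (adjusted p = 0.0103), in both of its probe sets, but not without control array 2 (adjusted p = 0.0582). Of 27 measured genes of glycolysis, gluconeogenesis and glycogen 0 were higher and 1 lower, and 8 lower after quantile normalization.

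Protein folding genes were mostly not called. Of 37 measured genes of endoplasmic reticulum folding and stress 1 was higher and 1 lower (5.49% and 2.74% over all genes). After quantile normalization 10 were lower (5.39% over all genes). Hyou1, a chaperone of that compartment, fell by 0.28 ± 0.078 (adjusted p = 0.0256), lost without control array 1, 2 or 5 or triadimefon array 2 or 4 (adjusted p of up to 0.0693). Fkbp4, a partner of HSP90 in steroid receptor folding, fell by 0.31 ± 0.080 (adjusted p = 0.0166), lost without control array 2 or triadimefon array 4 (up to 0.0762). The cold-inducible RNA-binding proteins Rbm3 and Cirbp rose by 0.31 ± 0.054 (adjusted p = 3.06e-04) and 0.14 ± 0.031 (adjusted p = 0.00505). Rbm3 read 0.39, 0.28, 0.55, 0.53 and 0.54 on the control arrays and 0.76, 0.84, 0.78, 0.77 and 0.70 on the triadimefon arrays, without overlap. Of 54 measured respiratory chain subunits 0 were called as deposited, with 2 at an unadjusted p under 0.05 (3713 of 14218 over all genes). After quantile normalization 17 were lower (5.39% over all genes), so the call of these subunits depends on the scaling.

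**Figure D4:**
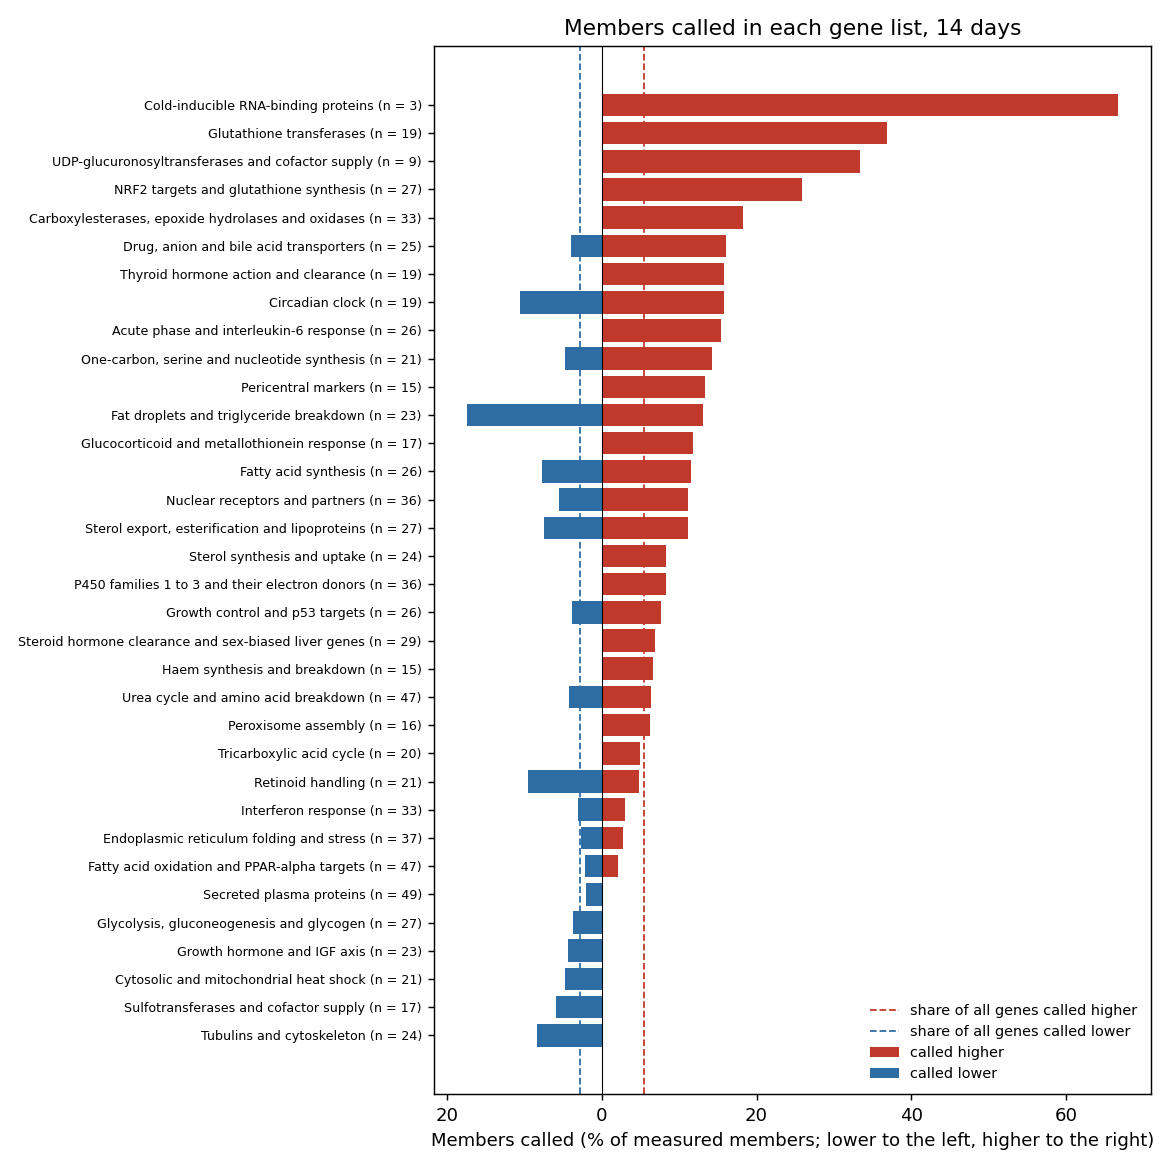
Share of measured members called higher (red, to the right) and lower (blue, to the left), in percent, for each list of liver functions with at least 1 call; n is the number of measured members, and dashed lines are the shares over all genes, 5.49% higher and 2.74% lower. Glutathione transferases (7 of 19) and UDP-glucuronosyltransferases (3 of 9) reach far to the right, while droplet and clock lists extend both ways.

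Other lower genes have varied roles. Slc6a6, the taurine transporter, read 1.07, 0.82, 0.88, 1.04 and 0.86 on the control arrays and -0.039, 0.34, 0.14, 0.11 and 0.19 on the triadimefon arrays, and fell by 0.78 ± 0.16 (adjusted p = 0.00215) in both of its probe sets. Spin2b fell by 0.69 ± 0.14 (adjusted p = 0.00234) and Paqr9, a membrane receptor of the adiponectin receptor family, fell by 0.68 ± 0.12 (adjusted p = 3.63e-04), neither with overlap. Inhba, which encodes the activin A subunit, fell by 0.65 ± 0.17 (adjusted p = 0.0158). Triadimefon array 4, at 0.41, was the lowest, without it the adjusted p was 0.0814, and the other probe set was not called. Stac3, known from muscle calcium release, fell by 0.85 ± 0.25 (adjusted p = 0.0321), Tubb2a, a beta tubulin, fell by 0.58 ± 0.18 (adjusted p = 0.0401), Sez6 fell by 0.51 ± 0.14 (adjusted p = 0.0197) and C6, a terminal complement component, fell by 0.48 ± 0.15 (adjusted p = 0.046). Of 13 skeletal muscle markers 0 were called, and their mean score was -0.248 to -0.183 in controls and -0.253 to -0.219 with triadimefon. The calls of these 4 genes were each lost when any 1 of several arrays was left out. Stac3 lost its call without control array 1, 2 or 5 or triadimefon array 2, 3, 4 or 5 (adjusted p of up to 0.0804), and Tubb2a without control array 1, 2, 4 or 5 or triadimefon array 1 or 4 (up to 0.179). Sez6 lost it without control array 1 or 5 or triadimefon array 2 (up to 0.0604), and C6 without control array 1, 2, 3 or 5 or triadimefon array 1, 3, 4 or 5 (up to 0.158).

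Markers of other liver cells were read beside these results. In bulk tissue fewer cells of a type and less RNA per cell cannot be told apart. Of 14 measured Kupffer cell and macrophage markers 0 were called, with 0 at an unadjusted p under 0.05, and their mean score per array was 1.04 to 1.27 in controls and 1.08 to 1.22 with triadimefon. Of 17 sinusoidal endothelial markers 2 were higher and 0 lower (5.49% and 2.74% over all genes), with mean scores of 0.756 to 0.843 and 0.829 to 0.878. Of 26 stellate cell and matrix markers 0 were higher and 2 lower (2.74% lower over all genes). Lox, the enzyme that crosslinks collagen, was 1 of these: it read 0.76, 0.41, 0.43, 1.13 and 0.059 on the control arrays and -0.054, -0.15, -0.015, -0.15 and -0.12 on the triadimefon arrays and fell by 0.66 ± 0.21 (adjusted p = 0.0472). The treated arrays sat close together near 0 and the controls were widely spread. The call was lost without control array 1, 2, 3 or 4 or any 1 of the 5 triadimefon arrays (adjusted p of up to 0.149), under variance-trend moderation, with a replicate block and when its probe sets were averaged, and the other Lox probe set was not called. Epcam, a surface protein of bile duct and progenitor cells, read 0.51, 0.34, 0.42, 0.54 and 0.51 on the control arrays and 1.0, 1.05, 0.92, 0.93 and 1.13 on the triadimefon arrays, a rise of 0.54 ± 0.060 (adjusted p = 8.91e-08) without overlap. It was the only called member among 15 measured bile duct and progenitor markers, whose mean score was 0.123 to 0.208 in controls and 0.169 to 0.21 with triadimefon; 9 of the 15 had a mean score under 0. Lymphocyte markers had 0 of 22 called (3 at an unadjusted p under 0.05). Neutrophil and mast cell markers had 0 higher and 3 lower of 13 (2.74% lower over all genes), with mean scores under 0 in every array. The part of cell composition in the gene results was not tested.

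Of 26 measured acute phase members 4 were higher (5.49% over all genes) and 0 lower. These were Lbp, Cd14 and the metallothioneins Mt1 and Mt2A described above. Lbp and Cd14, which present bacterial lipopolysaccharide, rose by 0.50 ± 0.079 (adjusted p = 8.47e-05) and 0.43 ± 0.10 (adjusted p = 0.00626). Lbp read 1.38, 1.19, 1.06, 1.11 and 1.35 on the control arrays and 1.63, 1.69, 1.71, 1.72 and 1.85 on the triadimefon arrays, without overlap. Cxcl9, a chemokine induced by interferon gamma, rose by 0.54 ± 0.13 (adjusted p = 0.0101), with controls at 0.26 to 0.56 and treated arrays at 0.68 to 1.24, and with its other probe set called in the same direction. Of 33 measured interferon response genes 1 was higher and 1 lower (5.49% and 2.74% over all genes).

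To ask what 14 days of dosing showed that 1 day did not, the effect at 14 days was set against the effect at 24 h, each against the controls of its own time. Of all genes 1612 had a higher effect at 14 days (11.3%) and 617 a lower one (4.34%). Over probe sets 3931 were called, and 2253 without control array 2 at 24 h. The share higher among those called was 72.3% as deposited, 53% after quantile normalization and 83.4% with arrays shifted to 1 median. For Cyp2b1 or Cyp2b2 the difference of effects was -0.037 ± 0.30 (adjusted p = 0.949), with a 95% interval of -0.64 to 0.56. Gsta3, with 14-day values given above, read 0.35, 0.62, 0.48, 0.25 and -0.013 in the 24 h controls and 0.42, 0.21, 0.75, 0.57 and 0.72 with triadimefon at 24 h, and its effect was higher at 14 days by 1.35 ± 0.22 (adjusted p = 1.87e-04). Abcc3 was higher by 0.82 ± 0.14 (adjusted p = 2.05e-04) and Gstm3 by 0.54 ± 0.13 (adjusted p = 0.00594). Hsd17b2 differed between times by 1.06 ± 0.29 (adjusted p = 0.0131), from an effect at 24 h of -0.13 ± 0.20. Epcam differed by 0.67 ± 0.085 (adjusted p = 3.68e-06) and Nr1d2 by 0.66 ± 0.15 (adjusted p = 0.00328).

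Cyp7a1, Cyp8b1 and Thrsp were lower than control at 24 h and not called at 14 days. Cyp7a1 stood at -1.34 ± 0.27 (adjusted p = 0.00141) relative to control at 24 h, with treated values of 0.39, 0.20, 1.29, 1.08 and 1.40 against 2.19, 2.69, 2.13, 2.25 and 1.80, and its effect was higher by 1.93 ± 0.38 (adjusted p = 0.00126) at 14 days. Cyp8b1 was -1.0 ± 0.15 at 24 h, a difference of effects of 1.09 ± 0.21 (adjusted p = 0.00107). Thrsp, a lipogenic gene driven by thyroid hormone and carbohydrate, was -1.20 ± 0.23 at 24 h and 0.063 ± 0.23 at 14 days, a difference of effects of 1.26 ± 0.33 (adjusted p = 0.0107). In the other direction stood Cyp4a3, a fatty acid hydroxylase, with -0.89 ± 0.21 (adjusted p = 0.00531), Alas1 with -0.84 ± 0.24 (adjusted p = 0.0188), Hsdl2 with -0.74 ± 0.15 (adjusted p = 0.00168), Ccnd1 with -0.64 ± 0.12 (adjusted p = 9.21e-04) and Sqle with -0.58 ± 0.15 (adjusted p = 0.00968). Angptl4, lower at 14 days, was 0.11 ± 0.16 from control at 24 h, a difference of effects of -0.83 ± 0.23 (adjusted p = 0.0149). The differences of effects were -0.83 ± 0.27 (adjusted p = 0.0354) for Apoa4 and -0.67 ± 0.22 (adjusted p = 0.0342) for Plin2. The last 2 calls were lost when any of 8 arrays (Apoa4; adjusted p of up to 0.0832) or 6 arrays (Plin2; up to 0.0872) of 20 was left out. For Apoa4 these were control array 2 or 5 and triadimefon array 1 or 4 at 14 days and control array 1 or 3 and triadimefon array 2 or 5 at 24 h. For Plin2 they were control array 2 and triadimefon array 4 at 14 days and control array 3 or 4 and triadimefon array 2 or 5 at 24 h. Both were also lost when only these 4 groups entered the fit. Of the 55 genes of replication and mitosis 13 had a lower effect at 14 days than at 24 h and 0 a higher one (4.34% and 11.3% over all genes).

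Triadimefon was also compared directly with myclobutanil at 14 days, the 1 pair of compounds tested. Both carry a triazole ring; triadimefon adds a ketone and a chlorophenoxy group, myclobutanil a nitrile and a chlorophenyl group. They were given at different doses, so a difference belongs to the treatments as given. Both sets of effects against control use the same 5 control arrays, so the compounds are compared by the direct test between treated arrays, and effects against control are given only as values. It called 29 genes higher (0.204%) and 28 lower (0.197%) with triadimefon. Over probe sets 103 were called, but 23 without triadimefon array 4, 40, 54 and 64 without myclobutanil array 4, 2 or 3, and 63 or 64 without triadimefon array 5 or 2.

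Most of the drug-metabolising genes that led the response gave small or uncertain differences between the compounds, while Ces2c, given below, was called. For Cyp2b1 or Cyp2b2 the difference was -0.12 ± 0.21 (adjusted p = 0.856), with a 95% interval of -0.54 to 0.31. The intervals were -0.18 to 0.64 for Aldh1a1, -0.12 to 0.52 for Gsta3, -0.53 to 0.22 for Ugt2b1 and -0.35 to 0.21 for Ephx1, wide enough to hide differences of up to their bounds. For Abcc3 and Gstm3 they lay above 0, at 0.13 to 0.51 and 0.097 to 0.47. Neither gene was called (limma adjusted p = 0.149 and 0.191). Ces2c was higher with triadimefon by 0.51 ± 0.095 (adjusted p = 0.00687) and Abcb1a by 0.39 ± 0.092 (adjusted p = 0.0435), the latter lost without any of 7 arrays (adjusted p of up to 0.225): myclobutanil array 1, 2, 3 or 4 or triadimefon array 1, 4 or 5. Abcb1a was also lost under variance-trend moderation and with averaged probe sets.

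Between the compounds 2 of 17 measured genes of the glucocorticoid and metallothionein list were higher with triadimefon and 1 lower, 2 and 1 of 27 in sterol export, esterification and lipoproteins, 2 and 1 of 19 clock genes, and 1 and 2 of 23 fat droplet genes. Over all genes the shares were 0.204% higher and 0.197% lower. Mt2A read 0.70, 1.5, 0.79, 1.46 and 0.88 with myclobutanil, within the range of the controls, and the difference of triadimefon from it was 1.55 ± 0.30 (adjusted p = 0.00921). For Mt1 it was 0.45 ± 0.086 (adjusted p = 0.00921). Both were lost without triadimefon array 4 (adjusted p = 0.0624 and 0.0513). Abcg5 read -0.059, 0.12, 0.13, 0.021 and 0.51 with myclobutanil, all below every triadimefon array, and Abcg8 -0.35, -0.24, -0.22, -0.34 and 0.070; the differences were 1.0 ± 0.16 (adjusted p = 8.20e-04) and 0.82 ± 0.14 (adjusted p = 0.00185). Nr1d2 and Nr1d1 were higher with triadimefon by 0.83 ± 0.10 (adjusted p = 7.08e-06) and 0.52 ± 0.086 (adjusted p = 0.00124). Cry1 was lower with triadimefon, a difference of -0.63 ± 0.077 (adjusted p = 7.08e-06), with myclobutanil values of 0.74, 0.94, 0.86, 1.08 and 0.68, and so was Ppard, at -0.24 ± 0.030 (adjusted p = 7.08e-06). The calls of Abcg5, Abcg8, Nr1d2, Nr1d1, Cry1 and Ppard were kept when any 1 array was left out. With only the groups compared in the fit, where 11 probe sets were called in all, the calls of Cry1, Ppard, Mt2A and Mt1 were kept. Those of every other gene named here as differing between the compounds were lost: Abcg5, Abcg8, Nr1d2, Nr1d1, Ces2c, Abcb1a, Apoa4, Plin2, Tkfc, Cdkn1a, Lpl, Fkbp4, Psat1 and Asns.

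Apoa4, Plin2, Tkfc and Cdkn1a were lower with triadimefon than with myclobutanil, with differences of -0.85 ± 0.19 (adjusted p = 0.0321), -0.67 ± 0.15 (adjusted p = 0.0362), -0.62 ± 0.13 (adjusted p = 0.0129) and -0.43 ± 0.10 (adjusted p = 0.0435). These calls were less secure, and each was lost without triadimefon array 4 or myclobutanil array 4 (Apoa4 also without myclobutanil array 2 or 3 or triadimefon array 1, and Plin2 and Cdkn1a without myclobutanil array 1, 2 or 3 or triadimefon array 1, 2 or 5), with adjusted p of up to 0.175, 0.192, 0.0864 and 0.211 over the arrays left out. All 4 were lost with only the groups compared, and Cdkn1a also under variance-trend moderation and with averaged probe sets. Myclobutanil's own effect against control was -0.091 ± 0.19 for Apoa4, 0.017 ± 0.15 for Plin2, -0.14 ± 0.16 for Abcg5, 0.094 ± 0.30 for Mt2A and 2.63 ± 0.21 for Cyp2b1 or Cyp2b2. Lpl and Fkbp4 differed between the compounds by 0.35 ± 0.078 (adjusted p = 0.0307) and -0.39 ± 0.080 (adjusted p = 0.0151), and Psat1 and Asns by 0.36 ± 0.072 (adjusted p = 0.0121) and 0.22 ± 0.052 (adjusted p = 0.0442). Fkbp4 lost its call without myclobutanil array 4 or triadimefon array 4 and Psat1 without myclobutanil array 4 or triadimefon array 1. Lpl lost it without myclobutanil array 1, 2, 3 or 4 or triadimefon array 2, 4 or 5, and Asns without any array but triadimefon array 3. All 4 were also lost with only the groups compared, Psat1 and Asns with a replicate block, and Asns under variance-trend moderation.

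**Figure D5:**
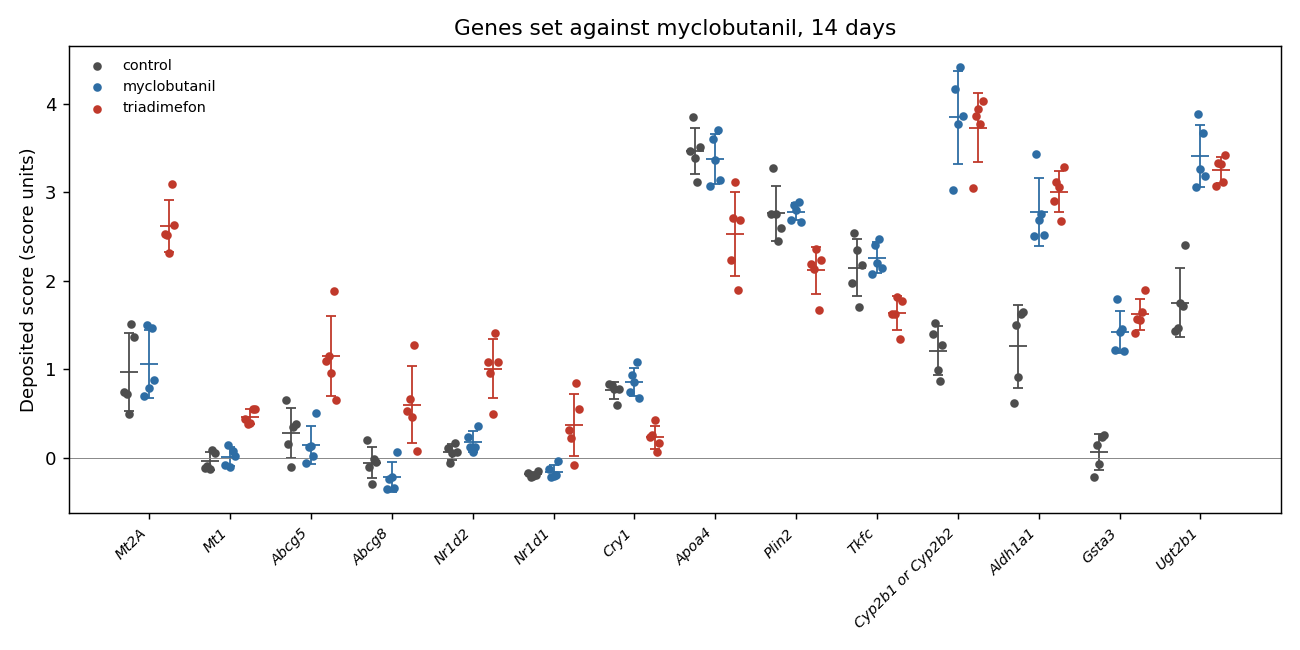
Deposited scores (vertical axis, score units) at 14 days for 14 genes in 5 control (grey), 5 myclobutanil (blue) and 5 triadimefon (red) arrays; bars are the mean ± SD. Mt2A with triadimefon lies at 2.31 to 3.10, above both other groups, whereas Cyp2b1 or Cyp2b2 lies at 3.05 to 4.03 with triadimefon and 3.03 to 4.41 with myclobutanil.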

How the data were processed

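Liver RNA was measured on Affymetrix Rat Genome 230 2.0 arrays from biotin-labelled cRNA, per the labels' protocols. The authors deposited 1 score per probe set and array, a log-type value centred near 0 (range -0.984 to 5.69); summarisation, normalization and base are not given in the sources used here. Arrays have no read depth, so their number limits the precision.

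Of 31099 probe sets, 57 Affymetrix controls were left out. Platform annotation names 1 gene for 20826, several for 436 and no gene for 9780; a gene was read from its probe set of highest mean. One probe set listed with Cyp2b1 and Cyp2b2 was kept. The scores were fitted with limma 3.58.1 (R 4.3.3), 1 mean per group over 45 arrays and default moderation. The scripts were tested on simulated data.

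Named genes were the 15 highest and 15 lowest differences with all 5 treated values on 1 side of the control mean, up to 4 called members per list, and a panel; for the other comparisons the 5 highest and 5 lowest. Lists (53, with 1261 of 1465 entries matched) and members were chosen with earlier results of these data known. Promoter windows were taken from RefSeq on GRCr8 (11700 genes, 13192 windows). Alternatives were quantile normalization, a median shift, a level filter, only the groups compared, trend and robust moderation, array weights, a replicate block, a size of 0.5 units, an adjusted p under 0.01, averaged probe sets and each array left out.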

Additional observations from a re-analysis of the deposited data

Results flagged for a closer look

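In 238 checks of a gene within a group of 5 arrays at 14 days, 16 held an array far from the other 4; chance flags about 1 in 20 groups. Triadimefon array 4 stood apart as the lowest for Inhba (0.414), Tubb2a (1.31), Fkbp4 (1.21), Bmal1 (-0.0344) and Nfil3 (0.554), and as the highest for Abcb1a (0.783) and Tef (0.696). Triadimefon array 1 was the lowest for Cyp2b1 or Cyp2b2 (3.05) and Slco1a4 (2.85) and the highest for Spin2b (0.153). Triadimefon array 3 was the lowest for Ugt2a1 (0.776) and the highest for Pc (1.53). Among controls array 4 was lowest for Cry1 (0.603) and Akr7a2 (1.67), array 1 lowest for Psat1 (-0.171), and array 2 highest for Por (1.43).

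The effect of triadimefon differed between 14 days and 24 h for 37 of the genes described, by limma's test of the difference of effects with Benjamini-Hochberg adjustment; each value is the effect at 14 days minus that at 24 h in score units. Detoxification genes with higher effects at 14 days were Gsta3 (1.35), Abcc3 (0.817), Mgst2 (0.591), Gstm3 (0.54), Ces2c (0.449), Gsta4 (0.43), Gclm (0.41), Gstm4 (0.385) and Akr7a2 (0.348). The calls of Ces2c, Gsta4, Gclm and Akr7a2 were lost after quantile normalization. Fat-handling genes with higher effects were Cd36 (0.561), Scd2 (0.452), Lpl (0.45) and Plin3 (0.438), and those with lower effects were Apoa4 (-0.835), Angptl4 (-0.834) and Plin2 (-0.671). The lipogenic gene Thrsp (1.26), the bile acid enzymes Cyp7a1 (1.93) and Cyp8b1 (1.09) and the steroid enzyme Hsd17b2 (1.06) were higher. Also higher were Cd14 (0.775), Epcam (0.674), Nr1d2 (0.661), Idh2 (0.543), Lbp (0.502), Glul (0.492, lost after quantile normalization), Rbm3 (0.482), Asns (0.42), Nr1d1 (0.399) and Cirbp (0.208). Lower effects at 14 days were found for Cyp4a3 (-0.89), Alas1 (-0.843), Hsdl2 (-0.744), Insig2 (-0.652), Ccnd1 (-0.635), Sqle (-0.582) and Ppard (-0.199).

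Some of these calls were lost when 1 array was left out. Ces2c lost its call without triadimefon array 2 at 14 days or 1 or 4 at 24 h, and Nr1d1 without triadimefon array 4 or 5 at 14 days or 1 or 3 at 24 h. Gsta4 lost it without control array 2 or triadimefon array 5 at 14 days or control array 2 or triadimefon array 1 at 24 h, and Akr7a2 without control array 4 or triadimefon array 5 at 14 days or control array 2 or triadimefon array 1 at 24 h. Glul lost it without any of 13 arrays, with array weights and with a replicate block, and Gsta4 with array weights. With only the 4 groups compared in the fit, Ces2c, Apoa4, Plin2, Nr1d1, Insig2 and Glul lost their calls, and with averaged probe sets so did Plin2.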

How the results depend on the processing

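The 2076 probe sets called between triadimefon and control at 14 days became 61 with a size of at least 0.5 units and 600 at an adjusted p under 0.01, and ranged from 1014 to 2185 with 1 array left out. The 1207 higher became 1834 after a median shift, 45 and 450 under the same stricter rules, and 735 to 1081 with 1 array left out (735 without control array 2, 763 without control array 4, 793 without triadimefon array 5). The 869 lower became 1393 after quantile normalization, 473 among probe sets above the median level, 516 with only the groups compared, 16 and 150 under the stricter rules, and 279 to 1108 with 1 array left out (279 without control array 2, 349 without triadimefon array 4, 448 without triadimefon array 1, 456 without control array 5, 577 without triadimefon array 5). The 103 called between the compounds became 292 after quantile normalization, 11 with only the groups compared, 12 and 27 under the stricter rules, and 23 to 118 with 1 array left out. The 3931 that differed between times became 115 and 1249 under the stricter rules, and 2253 to 5079 with 1 array left out. The stricter rules lower counts by construction; the cause of the other changes was not tested.

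The sources used here do not say that equal array numbers mark paired animals, and the main fit did not pair them. Deviations of same-numbered control and triadimefon arrays correlated at -0.0386, 0.129, -0.095, 0.344 and 0.127. The value for array 4 was the highest of all pairs, and differently numbered pairs ranged from -0.258 to 0.255. So few values cannot decide whether the numbers pair animals. With the array number as a replicate block the counts were 2259 for the main comparison, 78 between the compounds and 4155 between times, and the calls lost were Lox and Gstm2 in the main comparison, Psat1 and Asns between the compounds and Glul between times. Of the 77 genes called here and described, 50 kept their call in all 10 analyses that left out an array, 0 were lost after quantile normalization or a median shift, 9 were lost with only the groups compared (Cyp3a18, Tubb2a, Gstt3, Gstm2, Me1, Gclc, Per3, Npas2 and Myc), and none changed direction under any alternative run.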
